A study of Mus musculus with 503 samples.

Results

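The 10 genes described here are *Il6*, *Lif*, *Il11*, *Il33*, *Csf1*, *Il1r1*, *Il6st*, *Osmr*, *Lifr* and *Socs3*, found by their symbols among the 56701 gene rows of a single-cell count table from mouse spinal cord, and all 10 had counts in every one of the 4 groups of cells. The cells came from adult mice of the genotype GLAST-CreERT2;R26R-tdTomato;Pdgfrb-eGFP, which all groups share. It combines a tamoxifen-inducible Cre driven by GLAST (*Slc1a3*), a tdTomato reporter that Cre switches on, and EGFP driven by *Pdgfrb*. *Pdgfrb* is a gene of mural cells (pericytes and vascular smooth muscle cells, vSMCs) and of perivascular fibroblasts. The labels give every cell as female. The study's methods name females alone for crush lesions, whereas its reporting summary names both sexes for sequencing. The sort took EGFP+ cells that had tdTomato and, separately, those that lacked it, out of cord without injury or out of the crushed segment at 3 days after complete spinal cord injury (SCI), the outer meninges having been peeled off. The sample labels give 3 days and the text that describes the series gives 5 days, and the labels were followed. The labels name no animal, so each group was taken as 1 sample: no test was run, and intervals cover counting error only.

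After filtering, 468 cells remained. Without injury, plates 209 and 213 held 65 and 72 tdTomato+EGFP+ and 46 and 60 tdTomato-EGFP+ cells, and at 3 days after SCI plates 211 and 215 held 88 and 34 tdTomato+EGFP+ and 58 and 45 tdTomato-EGFP+ cells. The summed depth in that order of groups was 38406035, 26887338, 31133429 and 25645409 counts. No plate mixed the states, so the effect of injury and that of the plate cannot be told apart, whereas both sorted populations were on every plate. The 34 injured tdTomato+EGFP+ cells of plate 215 were shallow (a median of 14770 counts), and plate 211 held 94.6% of that group's counts. Markers of other cells moved with injury as well. The summed level of 5 endothelial markers was 3635 and 3947 CPM (counts scaled to a sum of 1000000) in the uninjured tdTomato+EGFP+ and tdTomato-EGFP+ groups and 345 and 1423 CPM after SCI, and that of 9 pericyte markers was 11036 and 12239 against 717 and 11416 CPM. Perivascular fibroblast markers summed to 4227 and 2207 CPM before and 21983 and 9575 CPM after SCI, and cycling markers to 16.04 and 5.06 against 998 and 592 CPM. *Pdgfrb* was detected in 99.2% to 100% of thinned cells in every group. The part of these shifts in the results below was not tested.

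Interleukin 6 (IL-6), leukaemia inhibitory factor (LIF) and IL-11 are secreted cytokines of 1 family. Each binds a receptor of its own and then the shared signalling subunit gp130, encoded by *Il6st*, which activates Janus kinases and the transcription factor STAT3. *Lifr* and *Osmr* encode subunits that pair with gp130 for LIF and for oncostatin M, and *Socs3* encodes a feedback inhibitor that STAT3 switches on. IL-33 is an alarmin, a nuclear cytokine of the IL-1 family that damaged cells release, *Il1r1* encodes the receptor for IL-1, and *Csf1* encodes the growth factor of macrophages and microglia.

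Of the cytokine genes of the gp130 family, *Il6* and *Il11* were almost undetected in uninjured cord and were present in both sorted populations at 3 days after SCI. *Il6* had 6 counts in all uninjured tdTomato+EGFP+ cells (0.0622 and 0.224 CPM on plates 209 and 213) and 4 in uninjured tdTomato-EGFP+ cells (0.232 and 0.110 CPM). After SCI, it was at 46.03 and 10.1 CPM on plates 211 and 215 in tdTomato+EGFP+ cells, compared with 70.6 and 92.8 CPM in tdTomato-EGFP+ cells. Every injured plate was above every uninjured plate in both populations, and the lowest injured value, 10.1 CPM, rested on 17 counts. Summed over plates, *Il6* was 44.1 CPM (95% interval 41.8 to 46.5) after SCI in tdTomato+EGFP+ cells, 282 times its uninjured level (129.4 to 771). In tdTomato-EGFP+ cells it was 82.2 CPM (78.7 to 85.8), 553 times the uninjured level (215 to 2030).

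*Il11* followed the same direction. In uninjured tdTomato+EGFP+ cells it was at 0.995 and 0.493 CPM on the plates, and in uninjured tdTomato-EGFP+ cells it had 0 counts on plate 209, which allows up to 0.347 CPM, and 1.81 CPM on plate 213, from 1 cell. After SCI, it reached 112.3 and 137.7 CPM in tdTomato+EGFP+ cells and 45.3 and 83.5 CPM in tdTomato-EGFP+ cells. The injured plates did not overlap the uninjured ones, and the injured tdTomato+EGFP+ plates lay above the injured tdTomato-EGFP+ plates. The ratio of injured to uninjured level was 162 (110.9 to 246) in tdTomato+EGFP+ cells and 53.2 (37.7 to 77.6) in tdTomato-EGFP+ cells.

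*Lif* was called higher after SCI in tdTomato+EGFP+ cells. There it was at 2.99 and 0.582 CPM on the uninjured plates and at 18.1 and 39.9 CPM on the injured plates, with no overlap, and the summed level was 12.1 times higher (9.31 to 16.1). In tdTomato-EGFP+ cells it was at 4.63 and 4.93 CPM before and at 0.656 and 12.9 CPM after SCI, so the injured plates lay on both sides of the uninjured ones. The uninjured tdTomato-EGFP+ level came from 3 cells, and the top cell held 69.2% of the counts. A single injured tdTomato-EGFP+ cell of plate 215 held 68.7% of its group's *Lif* counts, with 979 CPM of *Lif* and 2664 CPM of *Il11*.

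The sequences before the genes were read as well. The 250 bases before the annotated starts of the 10 genes (RefSeq, GRCm38.p6, 14 starts, with all 10 genes matched by symbol) were searched on both strands for TGANTCA, the AP-1 motif, for an NF-kB motif (GGGNN followed by TTTCC) and for TTCNNNGAA, a STAT motif. These letters occur in 6.75%, 1.41% and 7.01% of the 32817 mouse promoter windows of that length. Both windows of *Il33*, the other cytokine gene called higher after SCI in tdTomato+EGFP+ cells, held none of them. Nor did the window before the outer of the 2 *Il11* starts. The windows of *Il6* and *Lif* and the other window of *Il11* are shown because each holds TGANTCA, which is in capitals, as is the NF-kB match of *Il6*. The *Il6* window is chr5:30012864-30013113, the *Lif* window chr11:4257318-4257567, both on the plus strand, and that of *Il11*, on the minus strand at chr7:4778142-4778391, lies before the inner of its 2 starts, inside the gene's longest annotated span.
*Il6*: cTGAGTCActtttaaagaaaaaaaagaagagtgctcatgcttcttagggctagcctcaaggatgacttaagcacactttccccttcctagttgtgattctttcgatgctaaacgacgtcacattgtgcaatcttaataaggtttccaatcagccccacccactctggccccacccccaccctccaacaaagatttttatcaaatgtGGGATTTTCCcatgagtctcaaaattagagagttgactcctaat
*Lif*: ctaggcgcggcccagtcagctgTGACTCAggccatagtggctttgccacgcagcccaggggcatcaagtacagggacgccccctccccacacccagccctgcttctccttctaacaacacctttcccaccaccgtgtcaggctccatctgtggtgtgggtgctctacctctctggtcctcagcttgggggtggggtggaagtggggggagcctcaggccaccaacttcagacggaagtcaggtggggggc
*Il11*: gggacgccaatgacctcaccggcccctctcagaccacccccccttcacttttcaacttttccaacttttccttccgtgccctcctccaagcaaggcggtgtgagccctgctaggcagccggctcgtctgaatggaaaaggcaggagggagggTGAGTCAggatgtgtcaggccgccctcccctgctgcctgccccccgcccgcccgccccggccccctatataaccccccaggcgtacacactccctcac
Counted back from the start, the TGANTCA match spans bases -249 to -243 in *Il6*, -228 to -222 in *Lif* and -98 to -92 in *Il11*, and the NF-kB match of *Il6* spans -44 to -35. Of the other members, *Csf1* held the NF-kB motif once and *Socs3* held TTCNNNGAA once, as TTCTTAGAA at -154 to -146, and the windows of *Il1r1*, *Il6st*, *Osmr* and *Lifr* held none of the 3 motifs. A match is a run of letters and not a measured binding site.

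*Il33* differed between the sorts in both states, and per kilobase of exon it had the highest level of the 10 genes in injured tdTomato+EGFP+ cells (549 CPM per kb). In uninjured cord it was at 246 and 241 CPM on plates 209 and 213 in tdTomato+EGFP+ cells, compared with 5.79 and 57.9 CPM in tdTomato-EGFP+ cells. After SCI, it was at 1554 and 2126 CPM on plates 211 and 215 in tdTomato+EGFP+ cells, compared with 198 and 92.1 CPM in tdTomato-EGFP+ cells. On each of the 4 plates tdTomato+EGFP+ cells were the higher, and in each population the injured plates were above the uninjured ones. The summed level was 5.91 times higher in tdTomato+EGFP+ than in tdTomato-EGFP+ cells without injury (5.55 to 6.30) and 11.1 times higher after SCI (10.8 to 11.5). After SCI it was 6.52 times its uninjured level (6.37 to 6.66) in tdTomato+EGFP+ and 3.46 times (3.24 to 3.71) in tdTomato-EGFP+ cells. The uninjured tdTomato-EGFP+ level rested on few cells, 1 of which held 78.8% of the counts. The injury difference depended on which cells were summed. In an alternative chosen after the data were seen, without the cells in which *Cldn5* or *Flt1*, both endothelial genes, were above 1 as ln(1 + counts per 10000), 20.4% and 25.5% of the uninjured and 94.3% and 55.3% of the injured tdTomato+EGFP+ and tdTomato-EGFP+ cells were left, and *Il33* was at 962 CPM uninjured and 1704 CPM injured in tdTomato+EGFP+ cells, compared with 194 and 257 CPM in tdTomato-EGFP+ cells. These are log2 differences of 0.82 and 0.40, neither of which is called. Within cluster 3, a fibroblast-like cluster described below, *Il33* in tdTomato+EGFP+ cells was lower after SCI than before it. After SCI it was also below the tdTomato-EGFP+ level in that cluster.

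*Csf1* was not called in any comparison of the summed groups. In tdTomato+EGFP+ cells it was at 35.2 and 13.6 CPM on the uninjured plates and at 36.2 and 93.6 CPM on the injured plates. In tdTomato-EGFP+ cells it was at 18.76 and 23.999 CPM before and at 19.998 and 50.8 CPM after SCI. The injured plates were above the uninjured ones in tdTomato+EGFP+ cells, the lowest of them only just, and overlapped them in tdTomato-EGFP+ cells. The injury difference of 0.77 in tdTomato+EGFP+ cells was called higher in 5 of 14 alternatives: with TMM scaling (1.43), with DESeq2 size factors (1.56), with plates weighted equally (1.38), without plate 209 (1.46) and without plate 211 (2.00). That in tdTomato-EGFP+ cells, 0.67, was called without plate 211 (1.15). Without the cells high in *Cldn5* or *Flt1* the differences turned to -0.52 and -0.30, with 55.6 CPM before and 38.4 CPM after SCI in tdTomato+EGFP+ cells. The tdTomato-EGFP+ difference was also below 0 without plate 215 (-0.15) and with the CPM values of single cells averaged (-0.081).

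**Figure D1:**
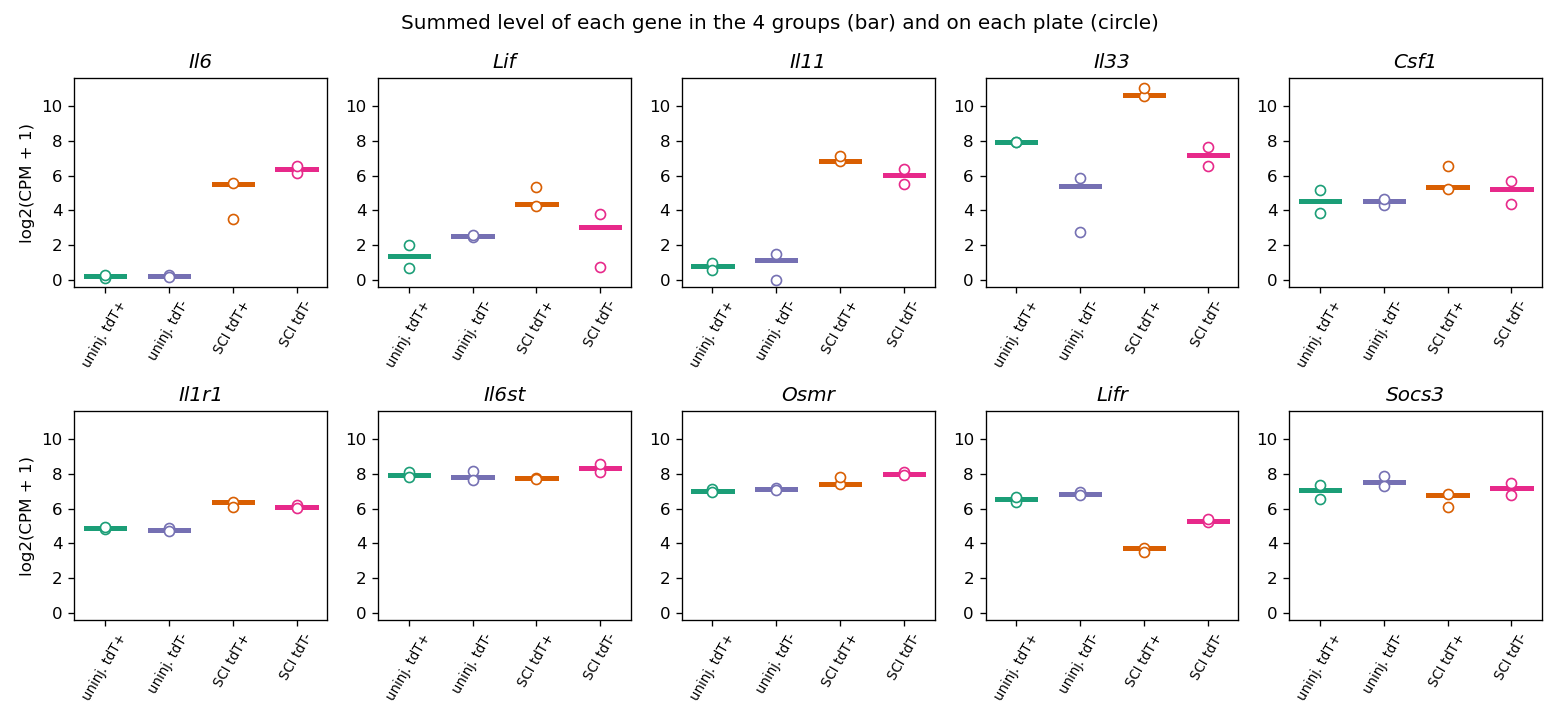
Summed level of each of the 10 genes as log2(CPM + 1), with a bar for each group and a circle for each of its 2 plates (uninj., uninjured; tdT, tdTomato). *Il6*, *Il11*, *Il33* and *Il1r1* lie higher on every injured plate than on every uninjured plate of the same sort, and *Lifr* lies lower.

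Among the receptor genes, *Il1r1* and *Lifr* moved in opposite directions after injury. *Il1r1* was at 27.3 and 29.5 CPM on the uninjured and at 83.5 and 67.97 CPM on the injured plates in tdTomato+EGFP+ cells, and at 28.02 and 24.8 CPM before and 72.4 and 64.8 CPM after SCI in tdTomato-EGFP+ cells. All injured plates were above all uninjured plates, by a summed ratio of 2.89 (2.69 to 3.11) and 2.65 (2.43 to 2.90). Its partner *Il1rap*, the accessory protein needed for IL-1 signalling, was at 22.4 and 20.9 CPM before and 20.7 and 16.2 CPM after SCI and was not called. *Il1rl1*, which encodes the receptor for IL-33, stayed under 1 CPM in all 4 groups.

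*Lifr* was at 81.8 and 101.4 CPM on the uninjured and at 12.6 and 10.1 CPM on the injured plates in tdTomato+EGFP+ cells. In tdTomato-EGFP+ cells it was at 123.3 and 109.2 CPM before and at 36.2 and 40.8 CPM after SCI. The injured plates were the lower in both populations without overlap, and after SCI the tdTomato+EGFP+ plates were below the tdTomato-EGFP+ plates. The uninjured level was 7.50 times the injured one in tdTomato+EGFP+ cells and 2.95 times in tdTomato-EGFP+ cells. The size of the *Lifr* difference changed when every cell was given the same weight. Among the shallow cells, 1 injured tdTomato+EGFP+ cell with 2 *Lifr* counts among 621 was at 3221 CPM. With CPM computed in each cell and then averaged, the log2 injury difference in that population was -1.09 in place of -2.81 and no longer had 1 sign in all plate pairs, and the sort difference after SCI was 0.25 in place of -1.56.

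*Il6st* and *Osmr* were detected in most cells and were not called in any comparison. *Il6st* was at 248 and 227 CPM in uninjured tdTomato+EGFP+ and tdTomato-EGFP+ cells and at 213 and 330 CPM after SCI, and its injury differences were -0.21 and 0.54 on the log2 scale. *Osmr* was at 128.8 and 139.7 CPM before and at 173 and 257 CPM after SCI, with injury differences of 0.42 and 0.87. With TMM scaling the *Osmr* differences were 1.09 and 1.16, and both were then called. Per kilobase of merged exons in GENCODE vM21, the levels of the gp130 partners after SCI in tdTomato+EGFP+ cells ran from *Il6st* (19.2 CPM per kb) through *Osmr* (14.3) and *Il11ra1* (9.29) to *Lifr* (1.15) and *Il6ra* (0.543). In uninjured tdTomato+EGFP+ cells the values were 22.3 for *Il6st*, 19.2 for *Il11ra1*, 10.6 for *Osmr*, 8.65 for *Lifr* and 4.43 for *Il6ra*, all in CPM per kb. *Il11ra1* may share counts with close paralogs.

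*Socs3*, the feedback inhibitor, was not called in either injury comparison. It was at 91.9 and 163 CPM on the uninjured and 113.4 and 67.97 CPM on the injured plates in tdTomato+EGFP+ cells, and at 233 and 156.8 CPM before and 111.2 and 179 CPM after SCI in tdTomato-EGFP+ cells. The plates of the 2 states overlapped in both populations, with summed log2 differences of -0.26 and -0.30, and the first changed sign with TMM scaling (0.41) and DESeq2 size factors (0.55). Without the cells high in *Cldn5* or *Flt1*, the difference in tdTomato+EGFP+ cells was -1.35 and was called lower. Over the 468 cells the level of *Socs3* was most like those of *Zfp36* (Pearson r = 0.44), *Junb* (0.44) and *Egr1* (0.43), genes known as rapidly inducible. As a list, 10 immediate early genes summed to 5210 and 4691 CPM in the uninjured and 2235 and 2870 CPM in the injured groups, with 8 and 4 of 10 called lower beside 34.3% and 17% of all genes, a shift that runs beside the *Socs3* values and whose part in them was not tested.

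A gene was called in a comparison where log2(CPM + 1) differed by 1 or more (2-fold), the higher group had 10 CPM or more, and both plates, or all 4 plate pairs across the states, had the same sign. After SCI in tdTomato+EGFP+ cells, 5 members were called higher (*Il6*, *Lif*, *Il11*, *Il33* and *Il1r1*), where 10.8% of the 11429 genes compared were called higher, and 1 lower (*Lifr*), where 34.3% were called lower. In tdTomato-EGFP+ cells, 4 were called higher (*Il6*, *Il11*, *Il33* and *Il1r1*) beside 9.52% of 11434 genes, and *Lifr* was called lower beside 17%. The median of all genes compared was -0.59 and -0.20 on the log2 scale in these comparisons, and 0.13 and 0.10 with TMM scaling. The median log2 difference of the members at 10 CPM or more was 1.13 over 10 members and 0.87 over 9.

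Between the sorts, tdTomato+EGFP+ against tdTomato-EGFP+, *Il33* was called higher in uninjured cord (log2 difference 2.53, and 5.18 and 2.04 on plates 209 and 213), beside 4.31% of 11198 genes, and no member was called lower, beside 3.61%. After SCI, *Il33* (3.47) and *Lif* (1.32) were called higher, beside 4.31% of 10631 genes, and *Lifr* (-1.56) lower, beside 17.9%. The *Lif* difference was 3.53 on plate 211 and 1.55 on plate 215, both above the pooled value, since the sorts divided their counts differently over the plates. The call was lost with a pseudocount of 10 CPM (0.78) and without the cells high in *Cldn5* or *Flt1* (0.54). *Il6* went the other way, with 44.1 against 82.2 CPM, and was not called. Its log2 difference of -0.88 ranged from -0.61 on plate 211 to -3.07 on plate 215. It was called lower with plates weighted equally and without plate 211. Without the cells high in *Cldn5* or *Flt1*, *Il6* was at 45.3 against 44.95 CPM. The injury difference of *Lif* was higher in tdTomato+EGFP+ than in tdTomato-EGFP+ cells by 2.50 and that of *Lifr* lower by 1.28 (a value of -1.28), where 4.57% and 20.6% of 12081 genes were called higher and lower. The *Lif* value rested on few tdTomato-EGFP+ cells, since 3 uninjured and 11 injured cells of that population had a *Lif* count. The *Lifr* value was lost in 6 of 14 alternatives.

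**Figure D2:**
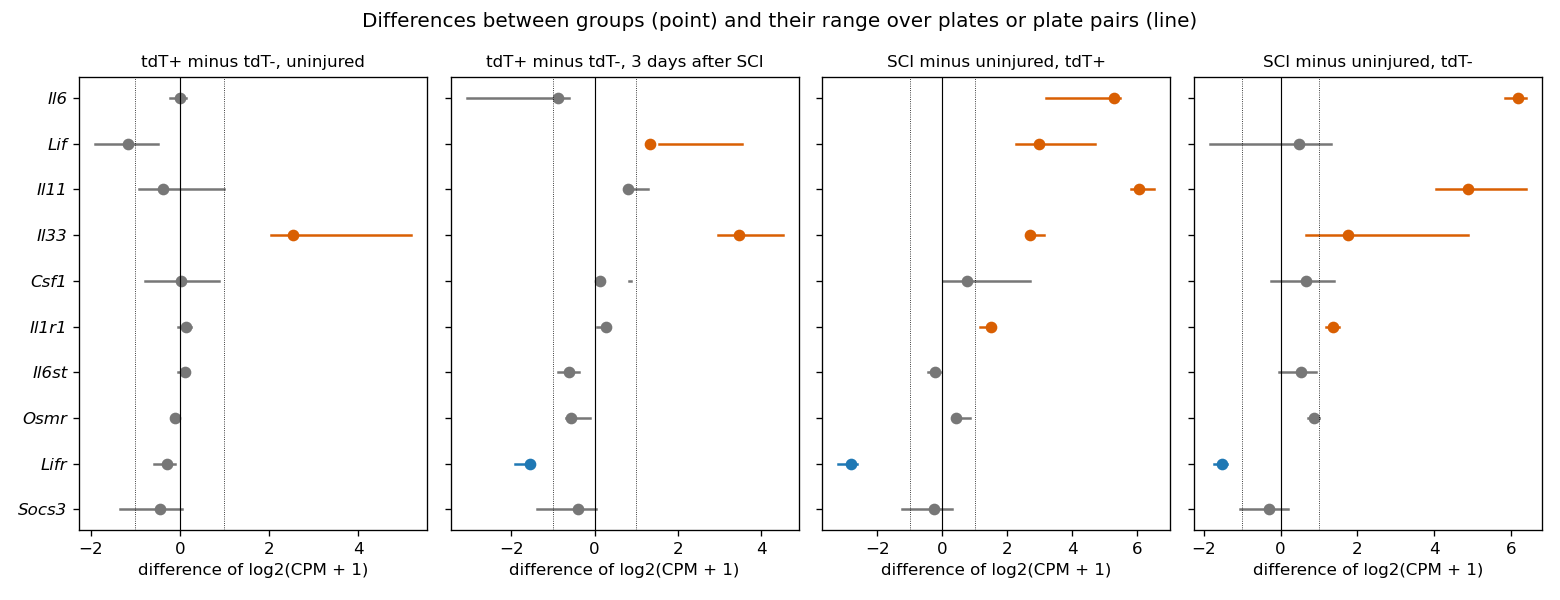
Difference of log2(CPM + 1) for each gene in 4 comparisons: a point gives the summed groups, a line the range over the 2 plates or the 4 plate pairs, and dotted lines mark a 2-fold difference. Orange marks genes called higher, blue those called lower; *Il33* is orange in all 4 panels and *Lifr* blue in 3.

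The cytokine transcripts were uneven between cells. In injured tdTomato+EGFP+ cells 9 cells held 80% of the *Il6* counts, and in injured tdTomato-EGFP+ cells 8 cells did, with a highest cell of 1384 and 961 CPM. *Il11* needed 18 and 6 cells for that share and *Il33* needed 19 and 6. *Osmr* and *Il6st* were spread far more widely, over 53 and 49 cells in injured tdTomato+EGFP+ cells.

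To compare shares of cells, each cell was thinned to 20000 counts, which left out 10 and 14 of the uninjured and 22 and 1 of the injured tdTomato+EGFP+ and tdTomato-EGFP+ cells. *Il6* had a count in 0 uninjured tdTomato+EGFP+ cells, which allows up to 2.36%, in 1.09% of uninjured tdTomato-EGFP+ cells, and, after SCI, in 22% (95% Clopper-Pearson interval 14.3 to 31.4) and 20.6% (13.2 to 29.7). The share with *Il6* was thus alike in the injured sorts, whose summed levels were 44.1 and 82.2 CPM, a difference that was not called. Without the cells high in *Cldn5* or *Flt1* these levels were 45.3 and 44.95 CPM. *Il11* rose from 0.787% and 1.09% to 42% (32.2 to 52.3) and 17.6% (10.8 to 26.4), with tdTomato+EGFP+ the higher after SCI. *Lif* was in 2.36% and 3.26% of uninjured cells, in 16% (9.43 to 24.7) of tdTomato+EGFP+ cells after SCI and in 2.94% (0.611 to 8.36) of tdTomato-EGFP+ cells.

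*Il33* was in 19.7% and 4.35% of uninjured cells and in 72% (62.1 to 80.5) and 16.7% (10.02 to 25.3) of injured cells. *Csf1* was in 47% (36.9 to 57.2) after SCI and in 15.7% (9.89 to 23.3) before it in tdTomato+EGFP+ cells, although its summed level was not called. *Il1r1* rose from 30.7% and 21.7% to 60% and 58.8%. *Lifr* fell from 57.5% (48.4 to 66.2) to 13% (7.11 to 21.2) in tdTomato+EGFP+ and from 65.2% (54.6 to 74.9) to 40.2% (30.6 to 50.4) in tdTomato-EGFP+ cells. *Socs3* was in more injured than uninjured cells, 56% against 44.1% and 67.6% against 48.9%, while its summed CPM was lower, so no order was read for it. Without thinning, *Il6* had a count in 43.4% and 37.9%, *Il11* in 57.4% and 32.04% and *Il33* in 81.97% and 18.4% of injured cells.

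**Figure D3:**
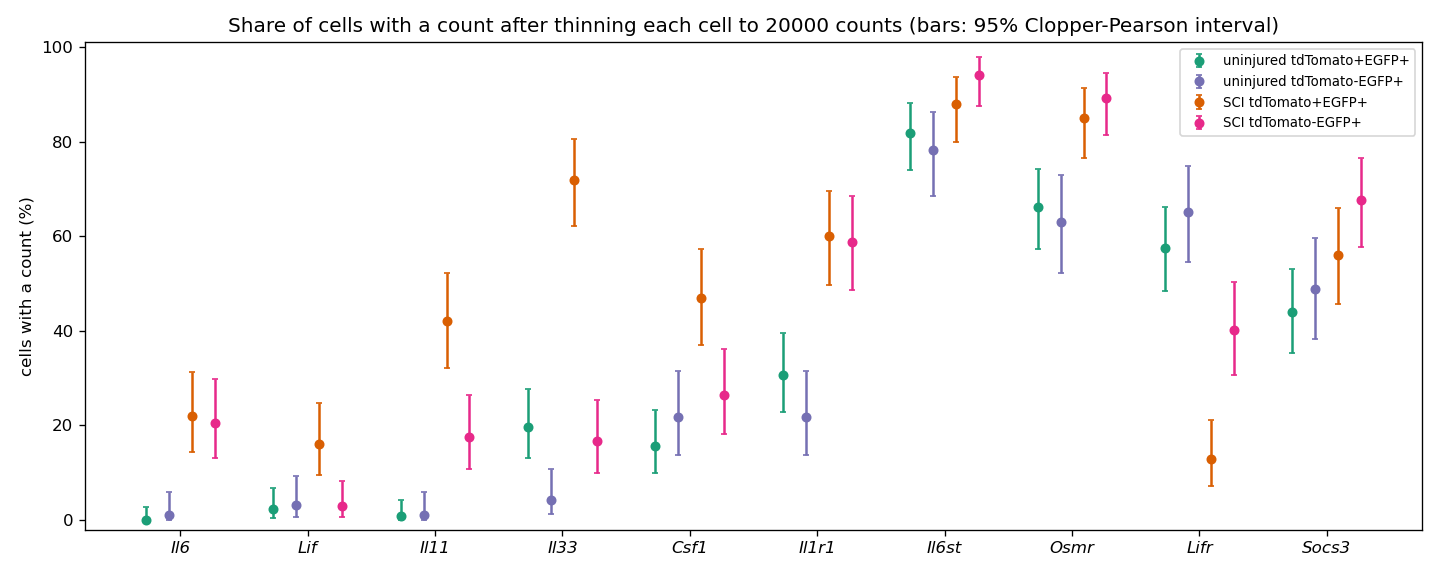
Percent of cells with a count of each gene after thinning every cell to 20000 counts, with 95% Clopper-Pearson intervals, for the 4 groups. *Il33* reaches 72% in injured tdTomato+EGFP+ cells and *Lifr* falls to 13% there, and the intervals of the uninjured groups overlap for every gene except *Il33*.

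Cells with more than 1 of *Il6*, *Lif* and *Il11* were seen after SCI. In thinned cells, 0 uninjured cells of either sort held 2 or 3 of these genes. Among injured tdTomato+EGFP+ cells, 44 held none of them, 35 held 1, 18 held 2 and 3 held all 3, and among injured tdTomato-EGFP+ cells 69 held none, 24 held 1, 9 held 2 and 0 held all 3. *Il11* was found with *Lif* in 12 of the 16 injured tdTomato+EGFP+ cells that had *Lif*, and with *Il33* in 37 of the 42 that had *Il11*. In injured tdTomato-EGFP+ cells *Il11* and *Il33* shared 2 of 18 *Il11* cells. *Il33* was in 72% and 16.7% of all thinned injured tdTomato+EGFP+ and tdTomato-EGFP+ cells, and *Il11* in 42% of the former. Of the injured cells with *Il6*, 81.8% and 95.2% also had *Osmr*, which was in 85% and 89.2% of all thinned injured cells, and 68.2% and 85.7% had *Il1r1*, which was in 60% and 58.8%. These counts describe cells of 1 sample per group and share its depth.

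**Figure D4:**
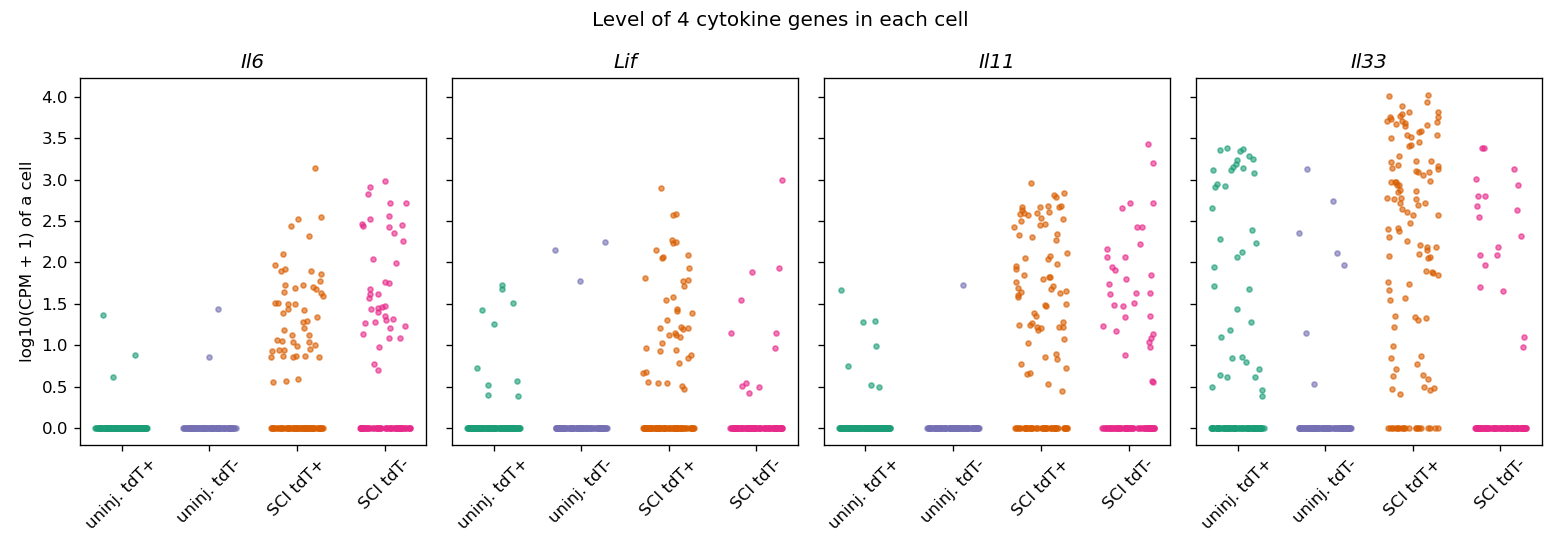
Level of *Il6*, *Lif*, *Il11* and *Il33* in each of the 468 cells as log10(CPM + 1), by group (uninj., uninjured; tdT, tdTomato). Most uninjured cells lie at 0 for *Il6*, *Lif* and *Il11*, and the highest single value, 10502 CPM, is *Il33* in an injured tdTomato+EGFP+ cell.

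Receptor pairs were also counted. *Il6st* with *Osmr* was in 56.7% and 50% of uninjured and 75% and 84.3% of injured thinned cells. *Il6st* with *Lifr* was in 45.7% and 50% of uninjured cells and in 12% (6.36 to 20.02) and 40.2% (30.6 to 50.4) of injured tdTomato+EGFP+ and tdTomato-EGFP+ cells. *Il6st* with *Il6ra*, the receptor for IL-6 itself, was in 21.3% and 15.2% before and 8% and 3.92% after SCI, and *Il6st* with *Il11ra1* in 37.01% and 26.1% before and 44% and 48.04% after.

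Cells were clustered without the members and the genes of their pathway lists, which gave 7 clusters. Cluster 1 (10 and 9 uninjured and 99 and 17 injured tdTomato+EGFP+ and tdTomato-EGFP+ cells) had 7 of 7 stromal fibroblast and 6 of 6 cycling markers raised by 0.5 or more on the log2 scale over all other cells, as were 6 of the 8 perivascular fibroblast markers, and its 19 uninjured cells were shallow, with a median of 1923 counts. Cluster 2 (63 and 51 uninjured and 2 and 5 injured cells in the same order) had 7 of 9 pericyte and 5 of 5 endothelial markers raised. Cluster 3 (72 cells, from all 4 groups) was perivascular fibroblast-like, with 8 of 8 markers. Cluster 4 (48 cells, 47 of them injured tdTomato-EGFP+) had 7 of 9 pericyte markers and led with *Ednrb* and *Avpr1a*. Cluster 5 had 5 of 5 endothelial and 4 of 9 pericyte markers raised, cluster 6 had 8 of 9 pericyte markers and 1 of 5 endothelial markers, and cluster 7 was vSMC-like, with 6 of 6 markers.

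Of the cytokines called higher after SCI, *Il6* was highest in cluster 4 and then in cluster 1, and *Il11* was highest in these 2 clusters. *Lif* and *Il33* were highest in cluster 1 and then in cluster 3. *Il6* was highest in cluster 4 (161 CPM, 153.6 to 168, in 52.1% of its cells), then in cluster 1 (50.3 CPM, 47.9 to 52.9), and was at 3.62 CPM or less in the others, so clusters 4 and 1 held 52.2% and 45.03% of all *Il6* counts. *Il11* was at 130.8 CPM (124.3 to 137.7) in cluster 4 and 117.8 CPM (113.98 to 121.6) in cluster 1. These intervals cover counting error only, and 1 cell held 26.4% and 16.9% of these counts, so no order of the clusters was read. *Il33* was at 1528 CPM in cluster 1 and 742 CPM in cluster 3, and at 3.36 CPM in cluster 4, all from 1 cell. *Lif* was at 18.9 CPM in cluster 1 and 12.1 CPM in cluster 3, and its 11.3 CPM in cluster 4 came to 97.7% from 1 cell. With resolution 0.3, which gave 3 clusters, the level in the highest cluster changed for all 10 genes.

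The receptors were spread more evenly. *Lifr* was lowest in cluster 1 (16.8 CPM) and cluster 4 (28.98 CPM) and highest in cluster 7 (146.7 CPM) and cluster 5 (138.7 CPM), the intervals of which overlap. *Osmr* was highest in cluster 4 (336 CPM), *Il6st* in cluster 3 (449 CPM), *Il1r1* in cluster 4 (93.6 CPM) and *Socs3* in cluster 7 (396 CPM).

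Cluster 3 held cells of both states, 26 and 8 uninjured and 19 and 19 injured. Most injured tdTomato+EGFP+ cells, 99, were in cluster 1, so values within cluster 3 cover the minority of that group that fell there. There, *Il33* was at 1031 CPM (1009 to 1052) before and 506 CPM (486 to 527) after SCI in tdTomato+EGFP+ cells, and at 452 CPM, 94.1% of it from 1 cell, and 579 CPM in tdTomato-EGFP+ cells. In cluster 3, *Il33* was thus lower after SCI in tdTomato+EGFP+ cells, and lower there than in injured tdTomato-EGFP+ cells, unlike in the summed groups. *Il6* was at 0.113 CPM before and 8.32 CPM after SCI in tdTomato+EGFP+ cells, and *Il11* at 0.680 and 2.50 CPM. *Il1r1* was at 24.4 and 219 CPM and *Osmr* at 90.3 and 291 CPM in tdTomato+EGFP+ cells, against 12.2 and 22.7 CPM and 96.7 and 126.5 CPM in tdTomato-EGFP+ cells. *Lifr* was at 59.1 and 28.9 CPM in tdTomato+EGFP+ and at 21.98 and 53.7 CPM in tdTomato-EGFP+ cells.

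**Figure D5:**
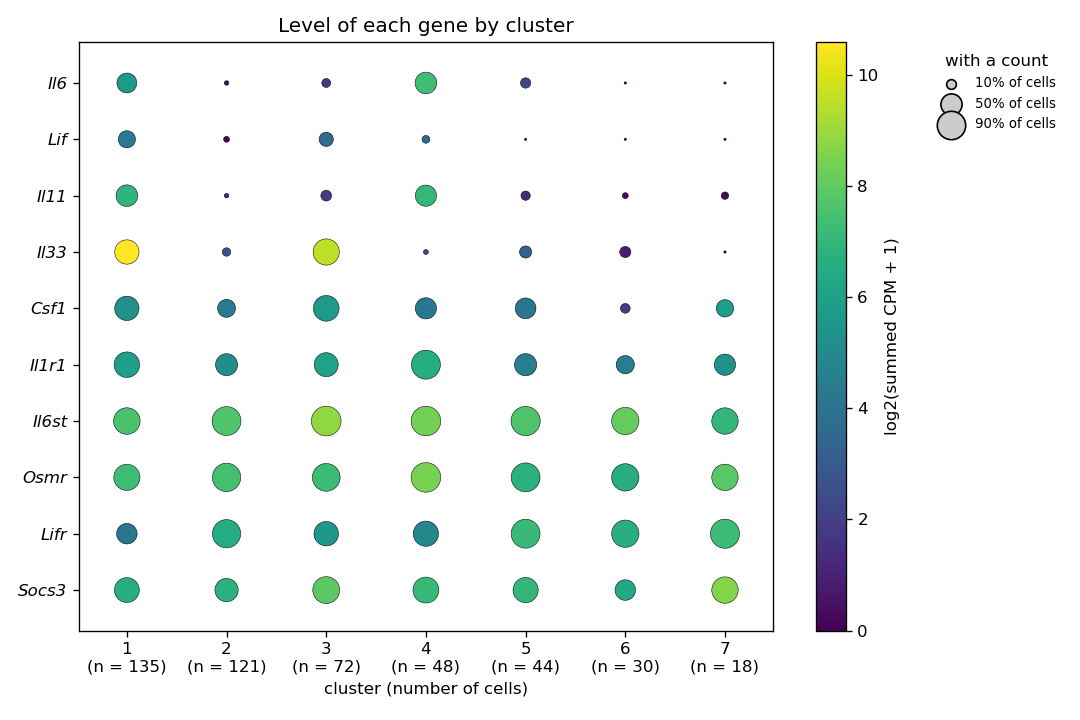
Summed level (colour, log2(CPM + 1)) and percent of cells with a count (size) of each gene in the 7 clusters, with the number of cells under each. *Il6* is highest in cluster 4, *Il33* in clusters 1 and 3, and *Lifr* lowest in cluster 1.

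Over all 468 cells, the genes most like *Il6* were *Adamts4* (Pearson r = 0.47), *Oacyl* (0.46) and *Gm28294* (0.45), those most like *Il33* were *Tgfbi* (0.67), *Lum* (0.65) and *Frzb* (0.64), and those most like *Il11* were *Hmga2* (0.60), *Gsto1* (0.59) and *Ccl2* (0.53). *Lif* was most like *Il11* (0.48), *Hmga2* (0.41) and *Gm8203* (0.41), and its r with *Il6* was -0.0022. *Osmr* was most like *Serpine2* (0.40), *Col4a1* (0.40) and *Stat3* (0.36), and *C1ra* (0.39) and *Nid1* (0.38) were among the genes most like *Il6st*. *Lifr* was most like *Utrn* (0.40), *Fry* (0.39) and *Cav2* (0.38), *Il1r1* most like *Tspan4* (0.41), *Rdh10* (0.39) and *Mmp11* (0.39), and *Csf1* most like *Prtn3* (0.36), *Igsf10* (0.33) and *Gm20528* (0.32). These values, over 16333 genes and with depth and group in common, are descriptions.

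The rest of the pathway was counted from fixed lists. All 8 other ligands of the family (among them *Osm*, *Cntf* and *Clcf1*) were under 10 CPM in every group, and *Osm*, the ligand of OSMR, was under 1 CPM. Of 5 other receptors, *Il6ra* (-2.79), *Il27ra* (-1.55) and *Il11ra1* (-1.03) were called lower after SCI in tdTomato+EGFP+ cells, beside 34.3% of all genes. The share of thinned cells with *Il11ra1* was not lower there, at 45.7% before and 49% after SCI. In tdTomato-EGFP+ cells *Il6ra* (-1.12) was called lower, beside 17% of all genes. Of 7 Janus kinases and STAT factors, 3 were called lower in tdTomato+EGFP+ cells (among them *Tyk2*, -1.59, and *Jak2*, -1.44) and 0 in tdTomato-EGFP+ cells, beside 34.3% and 17% of all genes, and *Stat3* was at 133.5 and 184 CPM before and 150.5 and 288 CPM after SCI.

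Of 15 STAT3 feedback and target genes, 7 were called higher and 2 lower after SCI in tdTomato+EGFP+ cells and 7 higher and 0 lower in tdTomato-EGFP+ cells, beside 10.8% and 9.52% of all genes called higher and 34.3% and 17% lower, with median log2 differences of 1.38 over 11 genes and 1.55 over 10. *Timp1*, a protease inhibitor, was at 6.46 and 849 CPM in tdTomato+EGFP+ cells, compared with 5.28 and 398 CPM in tdTomato-EGFP+ cells. *Serpina3n*, another protease inhibitor, was called higher in tdTomato-EGFP+ cells alone, at 0.483 and 44.7 CPM against 5.57 and 8.03 CPM, with a difference between the injury effects of -4.49. *Saa3*, an acute phase gene, had 0 counts in both uninjured groups and was at 57.2 CPM in injured tdTomato+EGFP+ cells and 0.429 CPM in injured tdTomato-EGFP+ cells.

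Of 12 NF-kB feedback and target genes, 4 were called higher in each population, *Ccl2*, *Cxcl1*, *Cxcl10* and *Ptgs2*, and 2 and 1 lower, beside the same shares of all genes (10.8% and 9.52% higher, 34.3% and 17% lower). *Ccl2*, a chemokine for monocytes, was at 11.98 and 996 CPM in tdTomato+EGFP+ and at 2.90 and 450 CPM in tdTomato-EGFP+ cells. *Il1a* and *Il1b*, the ligands of *Il1r1*, were under 3 CPM in all groups. *Sigirr*, an inhibitory receptor of the IL-1 family, was called lower in both populations (-4.13 and -2.62). *Il34*, which shares the receptor of *Csf1*, was at 395 and 98.2 CPM in tdTomato+EGFP+ and at 292 and 368 CPM in tdTomato-EGFP+ cells, called lower in the first. Of 4 other IL-1 family ligands, *Il1rn* was called higher and *Il18* lower in tdTomato+EGFP+ cells, and of 5 IL-1 receptor adaptors *Traf6* was called lower there, with 0 of either list called in tdTomato-EGFP+ cells. Of 5 other alarmin genes, *Hmgb1* (1.78) and *Hspd1* (2.46) were called higher in tdTomato+EGFP+ cells and 0 in tdTomato-EGFP+ cells. Beside the counts of these lists, 10.8% and 9.52% of all genes were called higher and 34.3% and 17% lower.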

How the data were processed

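Single cells were sorted into plates and made into Smart-seq3 libraries. The counts used here, whole numbers for every gene in every cell, were in 1 table that the authors deposited. Its 503 columns that match the labels were used, and 1465 further columns were not. The build was mm10 per the submitters' processing notes. Neither the aligner nor the annotation release is known here, nor if counts were of reads or of molecules: these are not given in the sources used here. Cells were kept with 200 or more genes and under 20% mitochondrial counts, and left out if ln(1 + counts per 10000) was above 1 for *Gfap*, for *Ptprc*, or for *Pecam1* where it was also above *Pdgfrb*, which left 468. The *Gfap* and *Ptprc* rule removed 0 cells and the *Pecam1* rule 34. Filtering took the uninjured tdTomato+EGFP+ and tdTomato-EGFP+ groups from 158 to 137 and from 118 to 106 cells. The injured groups went from 122 to 122 and from 105 to 103. The 92 spike-in rows (0.0314% of counts) were left out. Sorting was 1 cell per well and no doublet caller was run.

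Counts were summed per group and per plate and scaled to CPM, with exact 95% Poisson intervals. PCR copies are not independent molecules. Differences on the log2(CPM + 1) scale are too small for genes of low level, and with 1 sample per group no test was possible. Thinning to 20000 counts preceded shares of cells. Clustering used Seurat 5.3.0 (2000 variable genes, 20 components, resolution 0.5), alternatives edgeR 4.0.16 and DESeq2 1.42.0 factors, and summaries Python 3.11.15. The calls were tested on simulated data, and thinned sums were checked against the sums before thinning. Apart from depth, the simulated counts had no differences between cells or plates, so they give no error rate for calls in these data. The genes named were the 10 members, up to 4 called genes of each list and comparison by size, although some are not reported here, and the 3 genes of highest r, at 0.3 or more, per member with a count in 10% or more of cells. Other genes named, such as *Il1rap*, *Il1rl1*, *Stat3* and the *Cldn5* and *Flt1* cells, were chosen after their values were seen. Members and lists were chosen with earlier results of these data known. Alternatives covered scaling, pseudocount, floor, cell filters, cell and plate weighting, leaving out each plate or the top cell, thinning and resolution.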

Additional observations from a re-analysis of the deposited data

Results flagged for a closer look

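In 3 genes of the wider pathway the injury difference had opposite signs in the sorted populations in all 4 pairs of plates. The injury difference in tdTomato+EGFP+ cells minus that in tdTomato-EGFP+ cells was -1.56 for *Il11ra1*, 1.06 for *Icam1* and -2.33 for *Il34*. *Il11ra1* went from 85.9 to 41.5 CPM in tdTomato+EGFP+ and from 48.4 to 70.4 CPM in tdTomato-EGFP+ cells, and *Icam1* from 82.6 to 102.7 CPM and from 76.5 to 44.96 CPM. The share of thinned cells with *Il11ra1* did not fall in tdTomato+EGFP+ cells, at 45.7% before and 49% after SCI. In tdTomato-EGFP+ cells it was 31.5% and 50%. The difference between the injury effects was not tested for any of the 3 genes, since each group is 1 sample. None of the 10 members met this criterion.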

How the results depend on the processing

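The number of members called kept within 1.5 times its value in 58 of 66 alternatives. This compares numbers and not names, so the members called can differ. For injury in tdTomato+EGFP+ cells, *Il33* was lost and *Socs3* gained without the cells high in *Cldn5* or *Flt1*. Of the differences between the injury effects, with 2 called, 1 was called with TMM factors, with a pseudocount of 10 CPM and with CPM averaged over cells. The sort in uninjured cord, with 1 called, gave 2 with a floor of 1 CPM and 3 without the cells high in *Cldn5* or *Flt1*, an alternative chosen after seeing the data. Leaving out each plate in turn gave 1 to 2 calls for the sort in uninjured cord, 4 to 5 for the sort after SCI, where 3 were called with all plates, 6 to 7 and 5 to 7 for injury in tdTomato+EGFP+ and tdTomato-EGFP+ cells, and 2 to 5 for the difference between the injury effects. With a plate left out, fewer plate values had to share a sign, so the rule for a call was looser in these alternatives. *Lifr* reversed with CPM averaged over cells, to 0.25 for the sort after SCI and 0.37 for the difference between the injury effects. Of 660 log2 differences of members over the alternatives, 351 stayed within counting error of the main value and 307 moved beyond it. The *Lifr* values were the 2 that changed sign from a called value. A call was lost in 12, which was possible only where a call had been made. Plate 215 of the injured tdTomato+EGFP+ cells, with 1677209 counts, limits values there. No paired analysis was possible because no label numbers replicates across groups and 1 sample per group leaves no test. Differences between the sorts within each plate, which held both, were used as values for the calls.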
